A study of Mus musculus with 8 samples.

Results

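The 10 genes of the circadian clock described here were followed in pre-adipocytes and macrophages grown together and given cortisol, serotonin or both: Clock, Per1, Per2, Per3, Cry1, Cry2, Nr1d1, Nr1d2, Dbp and Tef. They were chosen by name, with their values in these data known, and each array probe whose accession belongs to one of them was used. They make up 10 of the 32395 genes with a probe, and 11 of 39429 probes, since Dbp has 2 probes and each of the others has 1. An accession without a RefSeq gene counts as a gene there and in the shares of all genes below. RefSeq names 20886 of the genes. Because the values helped to choose the 10 clock genes, everything given for these 10 is a description, and no test was made.

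The circadian clock is a loop of transcription that runs in most cells. The factors Clock and Bmal1 (gene Arntl) bind E-boxes and switch on the Per and Cry genes, whose proteins return to the nucleus and hold Clock and Bmal1 back. A further loop runs through Nr1d1 and Nr1d2 (REV-ERB alpha and beta), repressors that occupy the same RORE elements as the activator Rora, and the output factors Dbp and Tef bind D-boxes. In fat cells the clock is tied to lipid metabolism and to adipocyte differentiation, in macrophages to the timing of inflammatory responses, and glucocorticoids are known to set its phase in cultured cells.

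Each of the 8 two-colour Agilent whole-genome mouse arrays held 1 sample, so that every condition of each cell line had 1 array and no replicate. The cells were 3T3-L1, an embryonic mouse fibroblast line used as pre-adipocytes (spelled 3T3L-1 in the sample labels), and Raw264.7, a mouse macrophage line whose cells are called macrophages below. All 8 samples were taken at 48 h from transwell co-cultures. In these a porous membrane keeps the 2 lines apart and only the cells of the lower well are collected. The methods describe a set-up with 3T3-L1 cells below and another with macrophages below, and the cell numbers of both lines differ between them. Per line there was 1 untreated culture, 1 with cortisol (100 µM), 1 with serotonin (100 µM) and 1 with cortisol-serotonin, which is 100 µM of each hormone by the labels and a single dose of 100 µM in the methods. The hormones came from stocks in DMSO, and the medium with the hormones was renewed during the culture. The sample was in the Cy5 channel. The Cy3 channel held a common reference, a mixture of RNA of all samples by the labels and of untreated cells of both lines grown alone by the methods. The level given for a gene is the log2 ratio of Cy5 to Cy3 after background correction and loess normalisation within the array. A difference between 2 arrays subtracts these ratios, so the reference cancels. The error beside a difference is the technical error that the Feature Extraction software gives its own ratio, combined over both arrays. It says nothing of the spread between cultures. All 4 arrays of 3T3-L1 cells lay on 1 slide and all 4 of macrophages on the other, in the same order of treatments, so slide and cell line, and position and treatment, cannot be told apart. Nor can co-culture set-up and cell line. With a single time point, a shift of the clock's phase and a change of its level cannot be told apart either, and in bulk RNA neither can fewer expressing cells and less RNA per cell.

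The labels cortisol and serotonin need a caution before the results. Of 13 known glucocorticoid target genes, the median log2 difference from the untreated 3T3-L1 array was -0.19 on the array labelled cortisol, 0.62 on that labelled serotonin and 0.77 on that labelled cortisol-serotonin, with 13, 13 and 11 genes measured. In macrophages the medians were -0.21, 0.38 and 0.20, each over 12 genes. Fkbp5, a chaperone of the glucocorticoid receptor, had 3T3-L1 differences of 0.14, 1.31 and 1.44 in the same order. For Tsc22d3, also a direct target, they were -1.06, 0.41 and 0.77, and for the repressor gene Zbtb16 -0.19, 1.94 and 1.96. By their medians the targets of cortisol were thus higher on the arrays labelled serotonin than on those labelled cortisol in both lines. The list was mixed. In 3T3-L1 cells 5 of 13 targets were above untreated under the label cortisol and 10 of 13 under serotonin. In macrophages 2 of 12 and 10 of 12 were. Each array is named below by its label. By their marker sums the cell lines matched their names. All 9 macrophage markers with a probe were above background on every macrophage array, with summed signals of 76577 to 125457. On the 3T3-L1 arrays the sums were 4813 to 6955, yet 6 or 7 of the 9 were above background. Adgre1 and Spi1 were not above background on any of them. Cd14 had 3490 to 5340 units there against 38300 to 62400 in macrophages. Itgam reached 5200 units on a 3T3-L1 array, above its 972 to 1490 in macrophages. The fibroblast and pre-adipocyte markers held in the sums gave 143754 to 175768 on the 3T3-L1 arrays and 885 to 1955 on the others. These sums do not cover every marker. Fbln2 is left out of the sums of both lines, and its signal alone was 2290 to 5160 units on the macrophage arrays. On 1 3T3-L1 array Fbln2 had 95300 units. Of the 10 listed, 7 to 9 were above background on the macrophage arrays, so the lines differed in signal more than in detection. Of the adipocyte markers, Adipoq, Plin1 and Cidec were not above background on any 3T3-L1 array.

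Of the 10 clock genes, 7 were measured on all 8 arrays, which here means well above background in both channels: Clock, Per1, Cry2, Nr1d1, Nr1d2, Tef and Dbp. For Dbp this holds for 1 of its probes only. The other was dim on the macrophage array labelled serotonin and was marked as an outlier on that labelled cortisol-serotonin. Per2 was measured in 3T3-L1 cells, but its Cy3 signal on the array labelled serotonin was not well above background, and in macrophages its Cy5 signal was not well above background on any array. Cry1 was above background in Cy5 on the untreated 3T3-L1 array alone, and Per3 on none. The plot of log2 ratios by array shows every probe.

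**Figure D1:**
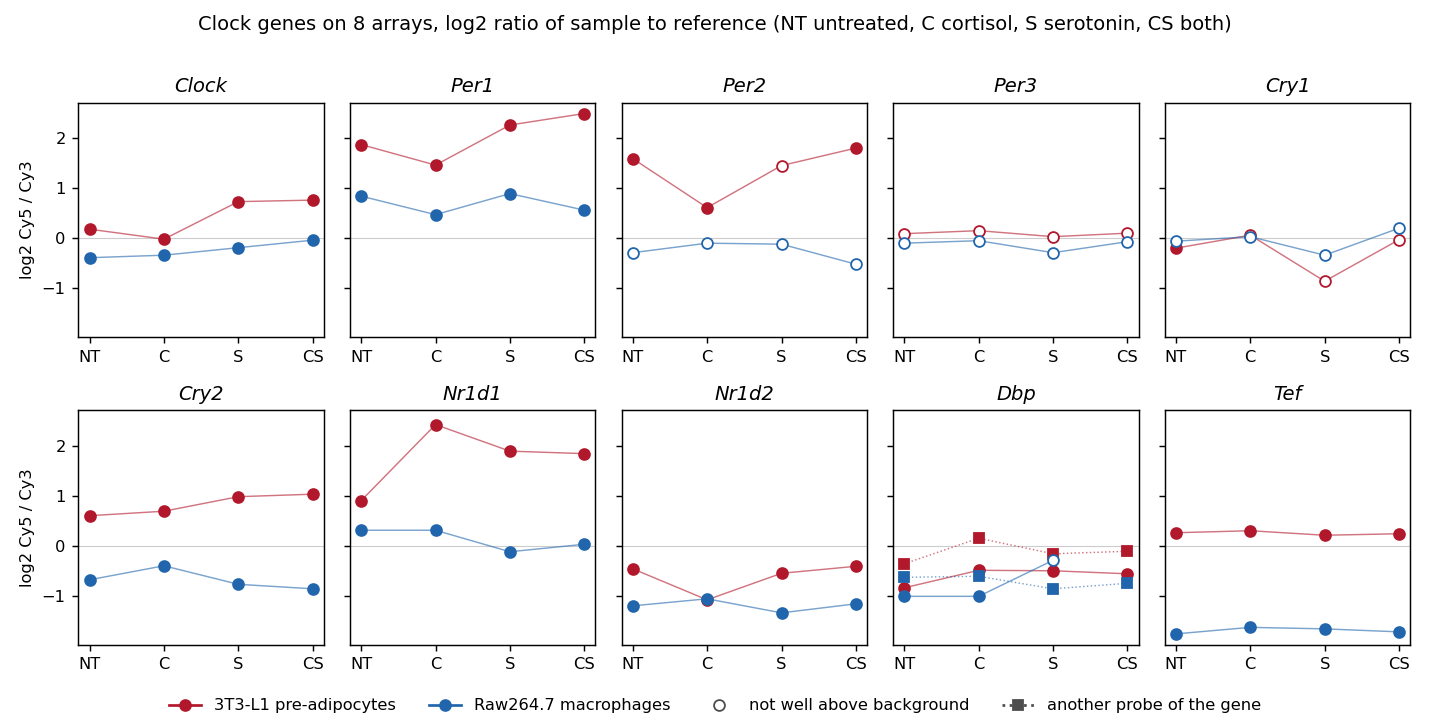
Log2 ratio of sample (Cy5) to reference (Cy3) of each clock gene on the 8 arrays, in 3T3-L1 cells (red) and macrophages (blue), for the untreated array (NT) and those labelled cortisol (C), serotonin (S) and cortisol-serotonin (CS). Each point is 1 array, lines only join the arrays of a line, open points were not well above background in at least 1 channel, and squares are the other probe of Dbp. Nr1d1 lies higher on the 3 treated 3T3-L1 arrays (1.84 to 2.42) than on the untreated array (0.90), while Tef stays between 0.21 and 0.30.

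After loess, Nr1d1 had the largest difference among the clock genes measured on each treated 3T3-L1 array. With median centring it kept that place under the label cortisol only, and Per1 and Clock exceeded it under the other 2 labels. It encodes REV-ERB alpha, a heme-binding nuclear receptor that represses Arntl and other genes with a RORE and is also known as a factor in adipocyte differentiation. Its log2 ratio was 0.90 on the untreated array, 2.42 on the array labelled cortisol, 1.89 on that labelled serotonin and 1.84 on that labelled cortisol-serotonin. All 3 treated arrays were above the untreated array, and the array labelled cortisol was the highest. The Cy5 signals behind them were 343, 778, 798 and 592 units in that order. The Cy3 signals ranged only from 266 to 309, so the reference was alike on these 4 arrays. The differences from the untreated array were 1.52 (error 0.43, 2.87-fold), 0.99 (error 0.39, 1.98-fold) and 0.94 (error 0.40, 1.92-fold) for the labels cortisol, serotonin and cortisol-serotonin. Only the first reached 2-fold, the threshold used for the main counts here, the other 2 lay just under it, and all 3 passed 1.5-fold. Among 13718 genes measured, 11 were as high as Nr1d1 or higher in the comparison with the array labelled cortisol, itself included. In the comparison with the array labelled serotonin 75 of 13590 genes were, and in that with cortisol-serotonin 126 of 13400.

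In macrophages the log2 ratio of Nr1d1 was 0.31 on the untreated array and 0.31, -0.12 and 0.03 on the arrays labelled cortisol, serotonin and cortisol-serotonin. None of the treated arrays was above the untreated one. The differences were 0.00 (error 0.32), -0.43 (error 0.32) and -0.28 (error 0.31), of which only the second exceeded its technical error. Cy5 signals of 176 to 197 units were low, and the offset of 50 used in the background correction draws the ratios of such dim spots together.

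Nr1d2, which encodes REV-ERB beta and shares much of the function of Nr1d1, did not follow it. Its log2 ratio in 3T3-L1 cells was -0.46 on the untreated array, -1.08 on the array labelled cortisol, -0.55 on that labelled serotonin and -0.41 on that labelled cortisol-serotonin. The array labelled cortisol was the lowest of the 4, with a difference of -0.61 (error 0.31, 1.53-fold lower) where Nr1d1 was 2.87-fold higher. Under median centring, which lifted the median of all genes there to 0.59, the value was -0.04. The other 2 differences were -0.08 (error 0.30) and 0.05 (error 0.30). In macrophages Nr1d2 had ratios of -1.2 untreated and -1.06, -1.34 and -1.16 on the arrays labelled cortisol, serotonin and cortisol-serotonin, and its differences of 0.14, -0.15 and 0.03 were all smaller than their errors.

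The promoters of both genes are shown because their RNAs differed in opposite directions on the array labelled cortisol. Each runs from 250 bases before to 50 bases after the start of transcription as RefSeq places it on GRCm38.p6 and is written 5′ to 3′ on the strand of the gene. Nr1d1 lies on chromosome 11 (98767932 to 98775377) and Nr1d2 on chromosome 14 (18204056 to 18239106), both on the minus strand. Capitals would mark a motif, and neither window holds any of those searched.
Nr1d1, chr11:98775328-98775627, minus strand: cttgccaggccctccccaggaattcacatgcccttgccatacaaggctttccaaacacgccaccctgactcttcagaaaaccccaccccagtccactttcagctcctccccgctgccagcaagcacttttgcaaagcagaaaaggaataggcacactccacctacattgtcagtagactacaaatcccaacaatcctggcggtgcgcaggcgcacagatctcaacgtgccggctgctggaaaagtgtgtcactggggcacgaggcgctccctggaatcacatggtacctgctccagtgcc
Nr1d2, chr14:18239057-18239356, minus strand: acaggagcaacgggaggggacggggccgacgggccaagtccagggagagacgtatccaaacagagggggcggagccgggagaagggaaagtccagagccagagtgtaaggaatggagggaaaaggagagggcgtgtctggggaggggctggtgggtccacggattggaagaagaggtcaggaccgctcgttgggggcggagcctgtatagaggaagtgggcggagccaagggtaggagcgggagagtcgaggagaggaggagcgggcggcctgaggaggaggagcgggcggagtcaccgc
The motifs were the E-box CACGTG, the D-box in its spellings TTATGTAA and TTACGTAA, the CRE TGACGTCA, the RORE and the glucocorticoid response element (GNACA and TGTNC with 3 bases between), each sought on both strands. A window without these letters says nothing of whether a factor binds there.

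Per1 and Per2, whose proteins hold Clock and Bmal1 back, had their lowest 3T3-L1 ratios on the array labelled cortisol. The log2 ratio of Per2 was 1.59 on the untreated array, 0.61 on the array labelled cortisol and 1.80 on that labelled cortisol-serotonin. On the array labelled serotonin it was 1.45, with Cy3 not well above background. The Cy5 signals were 313, 136, 373 and 259 units for the untreated array and the arrays labelled cortisol, cortisol-serotonin and serotonin. The Cy3 signals in that order were low, at 145, 188.5, 180 and 144 units, and only the last was not well above background. The array labelled cortisol was the lowest in log2 ratio and in Cy5 signal, and the highest in Cy3 signal. Its difference from the untreated array was -0.98 (error 0.45, 1.97-fold lower), just under 2-fold, and 187 of 13718 genes were as low or lower. On cortisol-serotonin the difference was 0.21 (error 0.49). The size of the Per2 difference varied with the processing, from -1.68 with the ratio that Feature Extraction gives and -1.35 without background correction to -0.73 with median centring. With the Cy5 channel alone the difference was -0.76, and it was below 0 in all 7 alternatives.

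Per1 is an immediate early gene of the clock and a known glucocorticoid target. Its log2 ratio in 3T3-L1 cells was 1.87 untreated, 1.46 on the array labelled cortisol, 2.26 on that labelled serotonin and 2.49 on that labelled cortisol-serotonin. The array labelled cortisol lay below the untreated array and the other 2 above it, the same order as for the medians of the glucocorticoid targets. The differences were -0.41 (error 0.37), 0.39 (error 0.41) and 0.62 (error 0.41, 1.54-fold higher), so that only the last was clearly larger than its technical error. With the Cy5 channel alone the last was 0.17, and with median centring the first turned to 0.46, which is under the median of all genes, 0.59, in that setting. In macrophages the ratios were 0.84 untreated and 0.47, 0.89 and 0.56 under the labels cortisol, serotonin and cortisol-serotonin, with differences of -0.37 (error 0.31), 0.05 (error 0.32) and -0.28 (error 0.31). The array labelled cortisol was again the lowest.

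Per3, the Period gene with the least part in the core loop, was not well above background on any array. Its Cy5 signals of 40 to 56 units stood over backgrounds of 26.5 to 28, and no difference is given.

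Clock encodes the DNA-binding partner of Bmal1. Its log2 ratio in 3T3-L1 cells was 0.18 untreated, -0.02 on the array labelled cortisol, 0.73 on that labelled serotonin and 0.76 on that labelled cortisol-serotonin. The last 2 arrays were alike and lay above the other 2. Their differences from the untreated array were 0.55 (error 0.30, 1.46-fold) and 0.58 (error 0.30, 1.5-fold), and that of the array labelled cortisol was -0.20 (error 0.29). In macrophages the ratio was -0.39 untreated and -0.34, -0.19 and -0.04 under the labels cortisol, serotonin and cortisol-serotonin, and the largest difference was 0.35 (error 0.29) for cortisol-serotonin. The reference signal of this probe ranged from 551.5 to 1780.5 units on the macrophage arrays although the same reference was used on all of them. With Cy5 alone the cortisol-serotonin difference became 0.98.

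The cryptochromes are the partners of the Period proteins. Cry2 had log2 ratios in 3T3-L1 cells of 0.60 untreated, 0.69 on the array labelled cortisol, 0.98 on that labelled serotonin and 1.03 on that labelled cortisol-serotonin. The order resembled that of Clock, but the differences of 0.09 (error 0.31), 0.38 (error 0.31) and 0.43 (error 0.31, 1.35-fold) were small. In macrophages its ratios were -0.68 untreated and -0.40, -0.77 and -0.86 in the same order, and no difference exceeded its error.

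Cry1 gave a Cy5 signal of 198 units on the untreated 3T3-L1 array and of 42.5 to 48 on the treated arrays, where it was not well above background. By Cy5 alone, Cry1 was at least 2.75-fold (label cortisol), 2.93-fold (label serotonin) and 3.02-fold (label cortisol-serotonin) lower than untreated. These bounds set the untreated signal against the lowest signal well above background on each treated array. The reference signal of the same spot was 423 units on the untreated array and 88 to 178 on the treated ones, so the log2 ratio of the untreated array, -0.20, was not higher than under the labels cortisol (0.06) and cortisol-serotonin (-0.03), though it was higher than under the label serotonin (-0.86). The reference moved with the result, and its part in the result was not tested. In macrophages the Cy5 signals of Cry1 were 33 to 61 units.

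The output factors Dbp and Tef are PAR bZIP proteins that drive D-box genes. Dbp had small differences in the same direction on all 3 treated 3T3-L1 arrays. Its 2 probes gave log2 ratios of -0.36 and -0.84 untreated, 0.15 and -0.49 on the array labelled cortisol, -0.16 and -0.50 on that labelled serotonin, and -0.11 and -0.56 on that labelled cortisol-serotonin. Both probes were lowest on the untreated array. The mean differences were 0.43 (error 0.21, 1.35-fold), 0.27 (error 0.21) and 0.26 (error 0.21). In macrophages they were 0.01, -0.24 and -0.13, each within its error, and the last 2 rest on 1 probe. The other Dbp probe had signals of 66 (Cy5) and 114 (Cy3) units on the macrophage array labelled serotonin against Cy3 signals of 1318 to 2130 on the arrays of either line where it was measured, so both dyes were low at that spot. Without the filter on dim probes the serotonin difference of Dbp turned from -0.24 to 0.24.

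Tef was flat across treatments in both lines. In 3T3-L1 cells its log2 ratio was 0.26 untreated and 0.30, 0.21 and 0.24 under the labels cortisol, serotonin and cortisol-serotonin, a range of 0.09. In macrophages it was -1.76 untreated and -1.63, -1.66 and -1.72, a range of 0.13. No other clock gene measured on all 8 arrays had as narrow a range in either line. Its reference signal ran from 4262 to 11434 units on the macrophage arrays, and with Cy5 alone the differences there were -0.82 for the label serotonin and -0.96 for cortisol-serotonin.

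**Figure D2:**
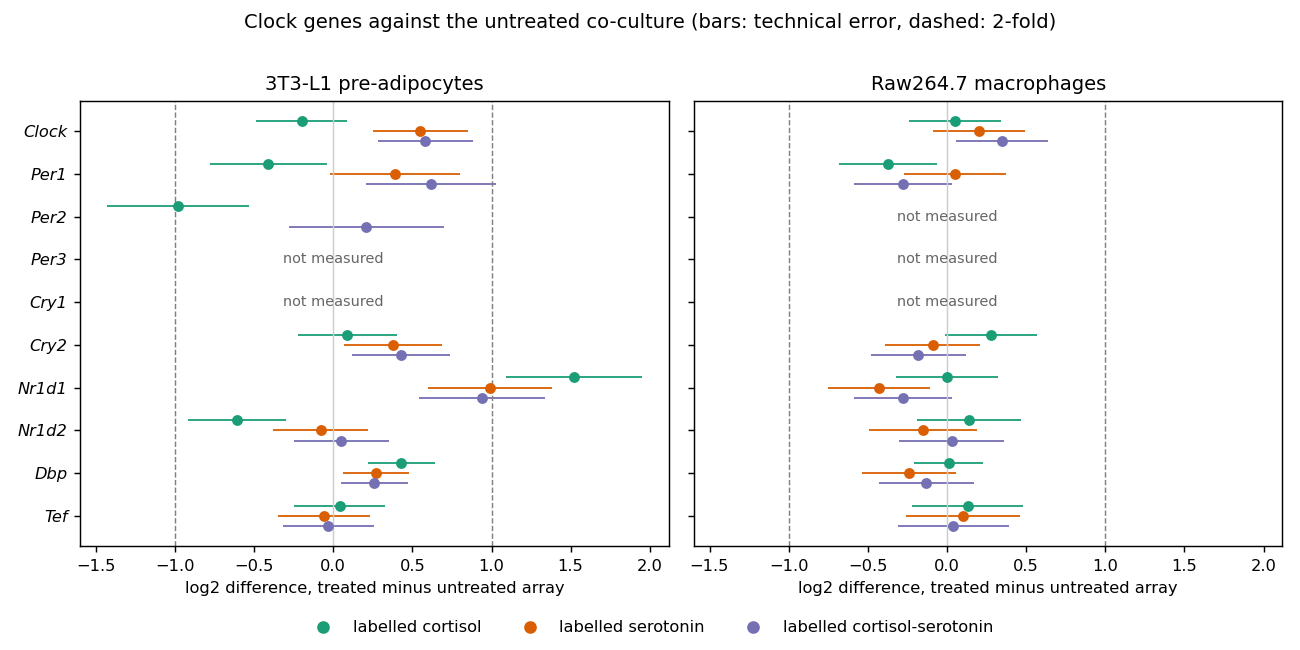
Log2 difference of each clock gene on a treated array, less its value on the untreated array of that line, for the labels cortisol (green), serotonin (orange) and cortisol-serotonin (purple). Points are single arrays against a single array, bars are the combined technical error of Feature Extraction, and dashed lines mark 2-fold. Nr1d1 in 3T3-L1 cells under the label cortisol (1.52) is the only point past 2-fold, and Per2 (-0.98) lies just inside it.

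Counted at 2-fold against the untreated array, 1 of the 8 clock genes measured was higher and 0 were lower on the 3T3-L1 array labelled cortisol, where 0.416% of all 13718 genes were higher and 1.23% lower. On the array labelled serotonin 0 of 7 were past 2-fold in either direction (1.24% of all 13590 genes), and on that labelled cortisol-serotonin 0 of 8 (1.43% of 13400). In macrophages 0 of 7 were past 2-fold under each label, with 0.083%, 0.914% and 0.254% of all genes past it for cortisol, serotonin and cortisol-serotonin. Nothing is read from these counts, since the genes were chosen with these values known. At 1.5-fold, 3 of 8, 1 of 7 and 2 of 8 clock genes were past the threshold in 3T3-L1 cells under the labels cortisol, serotonin and cortisol-serotonin, beside 11.1%, 8.27% and 7.7% of all genes, and 0 of 7 in macrophages under each label, beside 0.785%, 4.08% and 2.16%. The median difference over the clock genes was -0.08, 0.38 and 0.35 in 3T3-L1 cells and 0.05, -0.09 and -0.13 in macrophages, in the order cortisol, serotonin and cortisol-serotonin, and the median over all genes lay between -0.04 and 0.02. These 6 comparisons share the untreated array within each line, so their likeness is not read as a result. The adipocyte markers measured in 3T3-L1 cells (Fabp4, Pparg and Lpl) summed to 14292 units untreated, 13460 on the array labelled cortisol, 50176 on that labelled serotonin and 45943 on that labelled cortisol-serotonin. Fabp4 made up most of these sums and carried their rise, with differences from the untreated array of 2.24 and 2.45 under the labels serotonin and cortisol-serotonin, where Pparg had 0.47 and 0.61 and Lpl -0.13 and 0.13. Fabp4 was thus high on the same arrays as Clock, Cry2 and Per1, and its part in the result was not tested.

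Some pairs of comparisons share no array and ask the same question in the absence and in the presence of the other hormone. For serotonin these are the array labelled serotonin minus untreated, and cortisol-serotonin minus the array labelled cortisol. In 3T3-L1 cells Clock had differences of 0.55 and 0.79 (error 0.30), Per1 of 0.39 and 1.03 (error 0.40, 2.04-fold), and Cry2 of 0.38 and 0.34 (error 0.32). In both comparisons these 3 genes were higher on the array whose label adds serotonin. Nr1d2 had -0.08 and 0.67 (error 0.32), and Nr1d1 had 0.99 and -0.58 (error 0.47), opposite in direction. Per2, not measured in the first, was 1.19 (error 0.43, 2.28-fold) in the second, where 95 of 13394 genes were as high or higher. Dbp had 0.27 and -0.17, and Tef -0.06 and -0.07. At 2-fold, 2 of 8 clock genes (Per1 and Per2) were higher in the second comparison and 0 lower, beside 1.35% and 0.508% of all genes, and 4 of 8 differed by 1.5-fold or more, beside 10.1%. With the Cy5 channel alone neither reached 2-fold (0.73 for Per1 and 0.87 for Per2).

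For cortisol the pair is the array labelled cortisol minus untreated, and cortisol-serotonin minus the array labelled serotonin. Nr1d1 had 1.52 and -0.05 (error 0.43), Nr1d2 -0.61 and 0.14 (error 0.30), Per1 -0.41 and 0.23 (error 0.43), and Dbp 0.43 and -0.01 (error 0.21). In the second comparison all 7 clock genes measured lay between -0.05 and 0.23, within their errors, and 0 of 7 reached 2-fold, beside 0.0974% of all 13352 genes. Among the 3T3-L1 arrays, those labelled serotonin and cortisol-serotonin were the most alike pair (r = 0.98, a description across probes). The pairs that include the array labelled cortisol were the least alike (r = 0.90 to 0.92). The differences on the array labelled cortisol thus had no counterpart of like size in the second comparison. In macrophages no clock gene reached 2-fold in these comparisons, with 0.257% of all genes past it for cortisol-serotonin minus cortisol and 1.03% for cortisol-serotonin minus serotonin. The largest values were Cry2 at -0.46 (error 0.30) in the former and Per1 at -0.33 (error 0.31) in the latter. With Cy5 alone Clock reached 1.11 in the former.

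**Figure D3:**
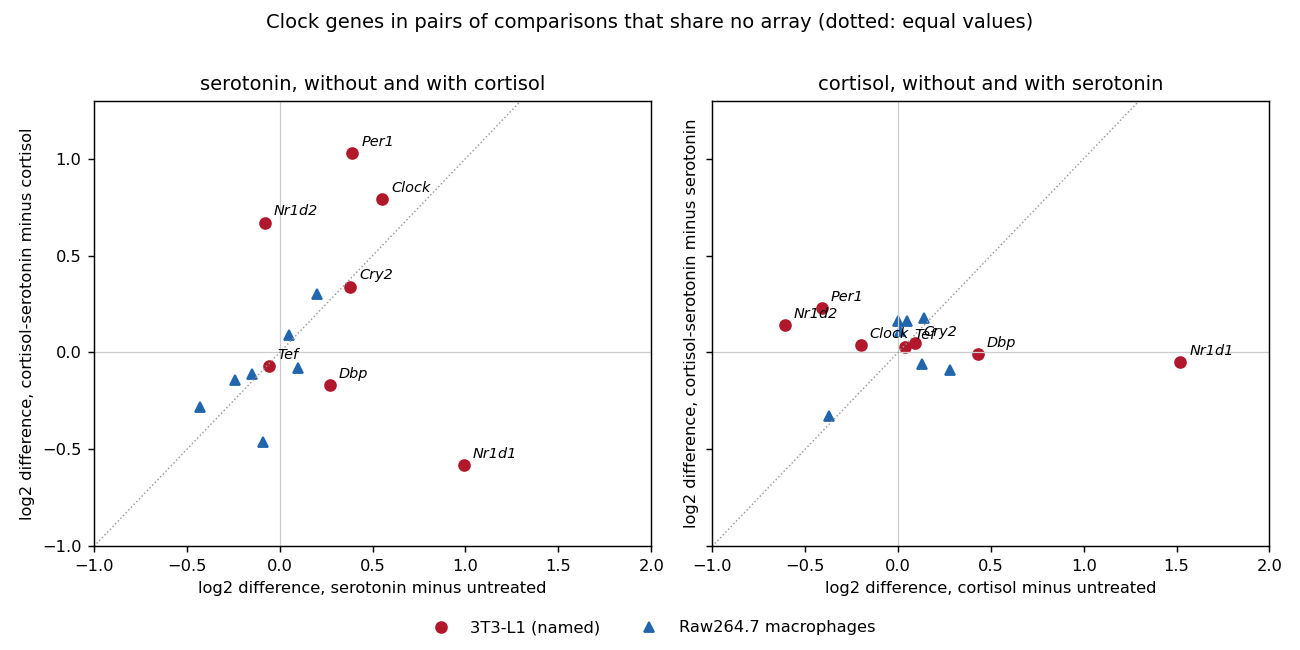
Log2 differences of the clock genes in pairs of comparisons that share no array. The left panel sets serotonin minus untreated (horizontal) against cortisol-serotonin minus cortisol (vertical), and the right panel cortisol minus untreated against cortisol-serotonin minus serotonin, for 3T3-L1 cells (red, named) and macrophages (blue). Nr1d1 lies far right at 1.52 in the right panel and near 0 (-0.05) on its vertical axis, and Per1 is above 0 on both axes of the left panel (0.39 and 1.03). Per2, Per3 and Cry1 are not drawn.

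The clock genes also differed between the cell lines after loess, and among the 7 measured on both untreated arrays Tef, Cry2 and Per1 did so most. On the untreated arrays, Tef was 4.07-fold higher in 3T3-L1 than in macrophages (log2 2.02, error 0.32), Cry2 2.43-fold (1.28, error 0.30) and Per1 2.04-fold (1.03, error 0.35). Nr1d2 (0.73), Nr1d1 (0.59), Clock (0.57) and Dbp (0.22) were also higher in 3T3-L1 cells. At 2-fold, 3 of 7 were higher and 0 lower, beside 17.1% and 15.3% of all 12951 genes, and at 1.5-fold 5 of 7 differed, beside 51.6%. The Cy5 signal of Per2 was at least 3.4-fold higher in 3T3-L1 cells. Over all 8 arrays, the 4 of 3T3-L1 cells lay above the 4 of macrophages for 6 of the 7 clock genes measured throughout, and for 35.5% of all 10995 such genes. The gap between the lines was 1.84 for Tef, 1.00 for Cry2, 0.59 for Nr1d1, 0.57 for Per1, 0.25 for Dbp (the probe measured throughout) and 0.02 for Clock, and for Nr1d2 the lines overlapped by 0.02. The difference depends on the normalisation across slides. With median centring in place of loess the median of all genes moved to -0.84 in this comparison, and Per1 turned to -0.12, Clock to -0.44, Nr1d2 to -0.13 and Dbp to -0.80, while Nr1d1 was at 0.00. Tef (0.86) and Cry2 (0.20) stayed above 0, and all 7 lay above that median. The ranking changed with the Cy5 channel alone. Less the median of all genes, Clock (1.3) was then the highest, before Cry2 (1.15), Tef (1.14) and Per1 (1.08). Nr1d1 had 0.48, Nr1d2 0.37 and Dbp -0.17 in that setting. Slide, co-culture set-up and line coincide, and their parts cannot be told apart.

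Per1 and Tef are shown next because each holds an E-box in the promoter window, and because Per1 varied over the 3T3-L1 arrays (range 1.03) while Tef did not (0.09). The promoter table held 13 windows for 9 of the 10 genes. The E-box CACGTG, in capitals, was found in 4 of these 13 windows, namely Per1 (the window shown), Cry1 and both windows of Tef, and in 7.17% of all 32544 promoters of that length. Counted back from the start of transcription, it begins at position -166 in Per1 and at -127 in the Tef window shown.
Per1, chr11:69098699-69098998, plus strand: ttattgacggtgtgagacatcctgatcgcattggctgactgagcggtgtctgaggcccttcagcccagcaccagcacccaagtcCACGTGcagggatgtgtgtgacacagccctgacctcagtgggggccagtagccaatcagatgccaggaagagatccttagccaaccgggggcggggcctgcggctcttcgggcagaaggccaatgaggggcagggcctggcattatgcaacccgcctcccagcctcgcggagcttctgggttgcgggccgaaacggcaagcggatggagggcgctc
Tef, chr15:81802423-81802722, plus strand: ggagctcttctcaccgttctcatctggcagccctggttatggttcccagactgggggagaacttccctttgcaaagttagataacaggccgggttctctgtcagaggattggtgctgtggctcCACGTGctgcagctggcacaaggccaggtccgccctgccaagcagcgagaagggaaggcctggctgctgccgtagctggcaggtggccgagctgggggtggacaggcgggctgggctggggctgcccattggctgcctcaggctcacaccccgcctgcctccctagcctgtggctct
The D-box spelling TTATGTAA occurred in 2 places in the window of Per3 (0.931% of all promoters held it), at positions -205 and -158. The other D-box spelling (0.12% of all promoters), the CRE (1.8%), the RORE (0.384%) and the glucocorticoid response element (0.476%) were in none of the 13 windows. A match is a description of these letters and no evidence of binding.

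Of 23 other genes of the clock pathway, 17 were measured on the 3T3-L1 array labelled cortisol and the untreated array, 16 for serotonin and 16 for cortisol-serotonin, and in macrophages 14, 14 and 16. Only Wee1, a kinase that delays mitosis and is driven through E-boxes by the clock, was past 2-fold against an untreated array: it was 2.63-fold lower (-1.40, error 0.36) on the 3T3-L1 array labelled cortisol. It had differences of 0.48 on the array labelled serotonin and 0.67 on cortisol-serotonin, the same order as for Per1, and of 2.07 for cortisol-serotonin minus cortisol. Nfil3, a repressor of D-box genes, had -0.67 (error 0.31) on the 3T3-L1 array labelled cortisol and -0.21 (error 0.32) on that labelled cortisol-serotonin. Rora, the activator at ROREs, had -0.19, 0.12 and 0.56 in 3T3-L1 cells and 0.50, 0.73 and 0.21 in macrophages, and untreated it was 13.3-fold higher in the former (3.73, error 0.42). Arntl, the gene of Bmal1, had no measured difference from the untreated 3T3-L1 array, and in macrophages it had 0.00 on the array labelled cortisol and -0.18 on cortisol-serotonin. The median over the list was -0.06, 0.05 and 0.02 in 3T3-L1 cells and 0.05, 0.03 and -0.02 in macrophages, beside medians of all genes between -0.04 and 0.02.

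**Figure D4:**
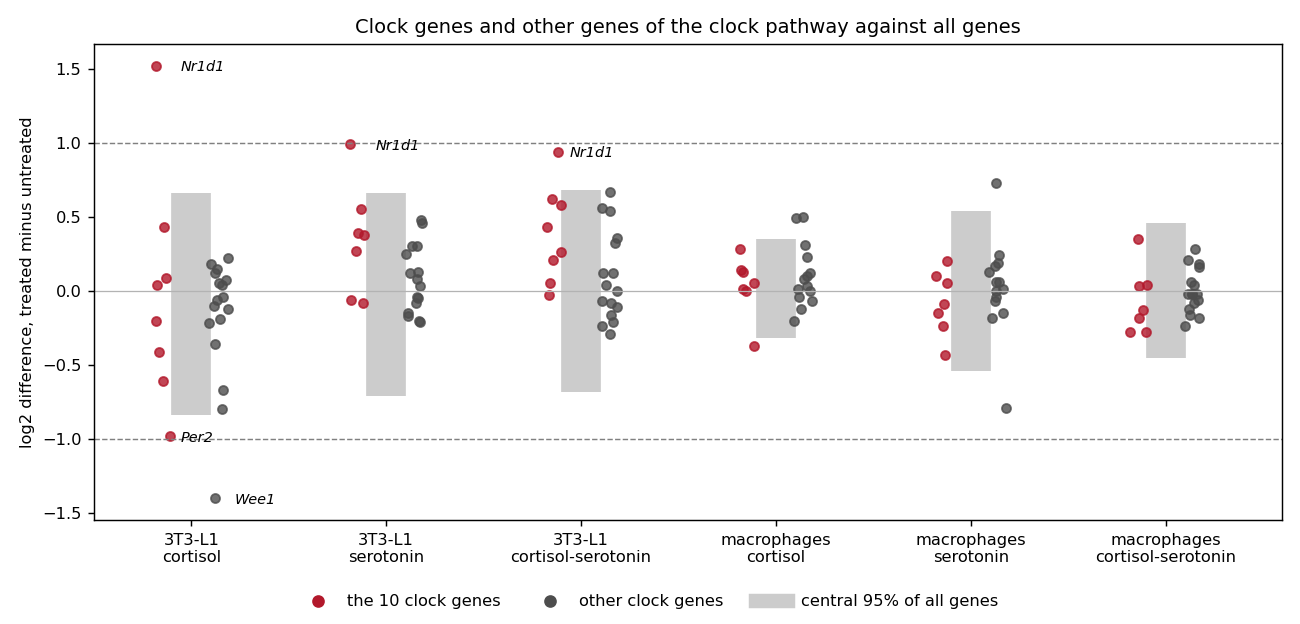
Log2 differences from the untreated array of the same line for the 10 clock genes (red) and the other genes of the clock pathway (dark grey), 1 point per gene measured, beside the central 95% of all genes (light bars) in each of the 6 comparisons. Dashed lines mark 2-fold. On the 3T3-L1 array labelled cortisol, Nr1d1 (1.52), Per2 (-0.98) and Wee1 (-1.40) lie outside the bar of -0.84 to 0.66.

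The rule for genes of like pattern took genes measured in all 6 comparisons with an untreated array and past 2-fold in at least 1. Besides Nr1d1, 313 such genes named by RefSeq were compared. Those whose 6 differences had the highest correlation with Nr1d1 were Arl5b (r = 0.997), Rxra (r = 0.98) and Ovgp1 (r = 0.971), a description over 6 points that share 2 untreated arrays. Rxra, which encodes a partner of many nuclear receptors, had differences of 1.14, 0.77 and 0.59 in 3T3-L1 cells, and Arl5b, a small GTPase gene, 1.25, 0.76 and 0.80.

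The difference of Nr1d1 on the 3T3-L1 array labelled cortisol lay between 1.32 and 1.79 in 7 alternative ways of processing the signals and stayed past 2-fold in all 7. Median centring raised all genes of the treated 3T3-L1 arrays, with medians of 0.59, 1.07 and 0.99 for the labels cortisol, serotonin and cortisol-serotonin. Relative to that median, Nr1d1 was still the highest of the clock genes on the array labelled cortisol, and Per2 the lowest (-1.32). On the array labelled serotonin Per1 (0.73) and Clock (0.62) were above Nr1d1 (0.61), and on that labelled cortisol-serotonin Per1 (0.83) and Clock (0.63) were above Nr1d1 (0.62).

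**Figure D5:**
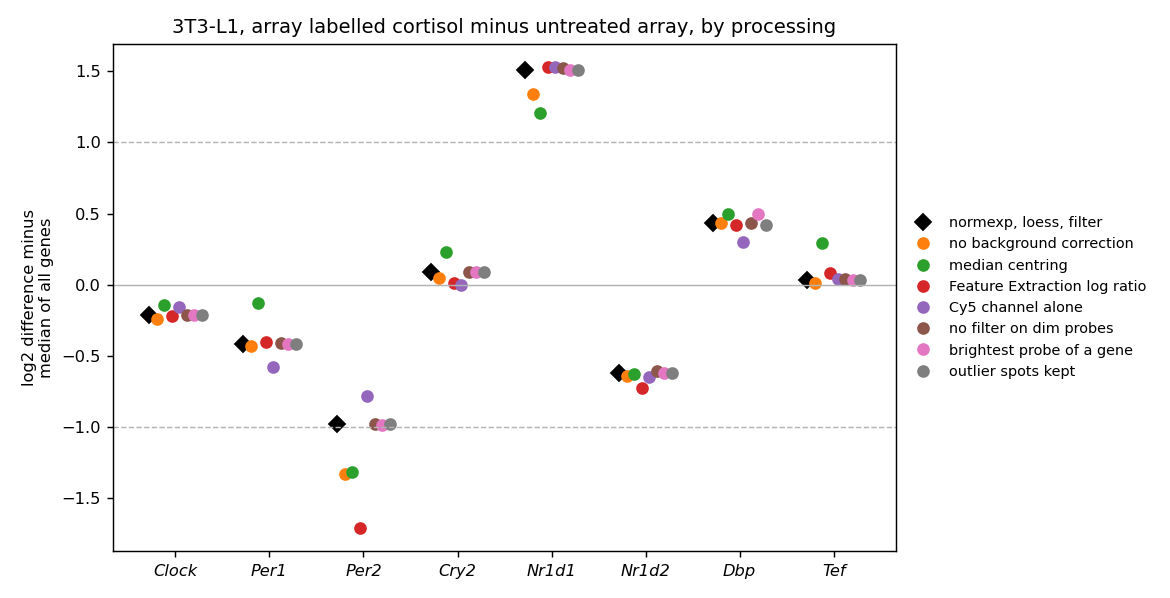
Log2 difference of each measured clock gene between the 3T3-L1 array labelled cortisol and the untreated array, minus the median of all genes, under the main processing (black diamonds) and 7 alternatives (coloured points). Dashed lines mark 2-fold. Nr1d1 stays above 2-fold in each, Per2 is past it with no background correction, median centring and the Feature Extraction ratio, and the other genes stay inside it.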

How the data were processed

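RNA of 8 co-cultures was measured on two-colour Agilent arrays, 1 per cell line and treatment, on 2 slides. The authors scanned and extracted them with Agilent Feature Extraction (version 10.5.1.1 per the labels, another version in the methods). The deposited scanner files hold median signal and background intensity values of both channels without normalisation across arrays, and a log10 ratio of Cy5 to Cy3 with its error. The series matrix deposited by the authors holds the same log10 ratio within 0.005 for all 43020 spots. A p-value for that ratio in the deposited files was not used.

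Median signals were background-corrected by normexp (offset 50) and log2 ratios normalised by loess within each array (limma 3.58.1, R 4.3.3). Control spots had weight 0 and were left out, as were spots marked as outliers. Spots were averaged to 39429 probes, of which 27508 (69.8%) matched a RefSeq gene (GRCm38.p6, names and promoters of that assembly; the build of the array design was not used). A gene's value is the mean over those of its probes that the scanner called well above background, in Cy5 and in Cy3, on both arrays compared. Dim genes have bounds only. An accession without a RefSeq match was kept as a gene of its own. Medians of Cy5 were 62 to 79 units (3T3-L1) and 51 to 103 (macrophages). No spot was saturated. The lowest correlation between arrays was -0.22, between lines. Precision is limited by the number of arrays, and no test was made.

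The groups come from the sample labels. The members and lists were chosen with earlier results of these data known. Named were the 10 clock genes, 3 glucocorticoid targets and the 3 genes most like a clock gene past 2-fold. Of the other clock genes, those past 2-fold against an untreated array and up to 4 others by role were named. Those past 2-fold only in other comparisons, and glucocorticoid targets past 2-fold, were not all named. The alternatives were no background correction, median centring, Feature Extraction's ratio, Cy5 alone with quantile normalisation, no filter on dim probes, the brightest probe, outlier spots kept and a 1.5-fold threshold. The steps were tested on simulated data.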

Additional observations from a re-analysis of the deposited data

Results flagged for a closer look

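Nr1d1 differed in direction between the cell lines under the label serotonin. The log2 difference from the untreated array was 0.99 (error 0.39) in 3T3-L1 cells and -0.43 (error 0.32) in macrophages. There is 1 array on each side of either comparison, and the difference between the lines was not tested. With the Cy5 channel alone the value in macrophages was 0.06.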

How the results depend on the processing

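No paired analysis was possible because each condition has 1 array and the labels give no replicate numbers. For the same reason no replicate could be left out, and a slide term was not fitted since each comparison with an untreated array lies on 1 slide. Counts of clock genes past 2-fold moved as follows. With median centring they were 2, 6 and 6 for the 3T3-L1 arrays labelled cortisol, serotonin and cortisol-serotonin against untreated (1, 0 and 0 with loess), 4 for cortisol-serotonin minus cortisol (2 with loess) and 0 between the untreated lines (3 with loess). With no background correction, and with Feature Extraction's log ratio, the count for the label cortisol was 2, and with the latter cortisol-serotonin minus cortisol gave 1. With the Cy5 channel alone that count was 0, and in macrophages it was 1. At 1.5-fold the counts were 3, 1 and 2 for the labels cortisol, serotonin and cortisol-serotonin in 3T3-L1 cells, 4 for cortisol-serotonin minus cortisol and 5 between the lines. The other counts stayed within 1.5 times under every alternative. Of 80 single differences, 30 moved by more than their technical error with median centring. So did 1 more, Per1 between the untreated lines, which was past 2-fold and changed sign. With Cy5 alone 17 moved, with Feature Extraction's ratio 1 and without the filter on dim probes 1. Median centring turned that Per1 difference from 1.03 to -0.12. Between the same lines it turned Clock to -0.44, Nr1d2 to -0.13 and Dbp to -0.80, while the median of all genes there was -0.84. The cause was not tested. All 80 stayed within their error with the brightest probe, outlier spots kept or no background correction. Signals near background limit Per2, Per3 and Cry1 in both lines. For Per2 in 3T3-L1 cells this concerns the Cy3 channel.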
